A study of Mus musculus with 12 samples.

Results

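The cytosolic ribosome of the mouse is built from a small and a large subunit, whose protein parts are encoded by genes named Rps and Rpl. These genes were taken from the deposited table by symbol: Rps or Rpl followed by a number, with the suffixes that mark paralogs, and Rplp0, Rplp1, Rplp2 and Rpsa. The rule used no measured value and found 84 genes among the 24490 genes of the table, 52 of the large and 32 of the small subunit. Fau, Gnb2l1 and Rps3a1, which also encode ribosomal proteins or a ribosome-bound protein, have other names and were not included.

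Dorsal root ganglia (DRG) hold the cell bodies of sensory neurons, among them the nociceptors that detect painful stimuli, together with satellite glia, Schwann cells and other cells. All 12 samples came from adult C57Bl/6 mice without any transgene, and the methods state that the mice were male. The 4 intact samples were ganglia frozen whole, each from 1 mouse. The 4 unsorted samples were ganglia dissociated with dispase, collagenase and DNAse, each pooled from 2 mice, and the 4 MACS-sorted samples, each pooled from 8 mice, were dissociated in the same way and then passed over a magnetic column that retains cells bound by an antibody cocktail against non-neuronal cells. No sample was cultured, and pooling differs between the groups in full, so the number of mice per sample and the preparation cannot be told apart. Expression was measured by sequencing of polyA-selected RNA and is given as FPKM, which counts fragments relative to the length of the transcript and to all fragments of the sample. The depth of each sample cannot be read from these values. The labels say no more of the origin of the replicates than the number of mice in each, so p-values measure the spread between these samples.

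Ribosomal proteins are made in nearly equal numbers, since each ribosome needs 1 copy of most of them, and their mRNAs are among the more abundant of most cells. Many of these mRNAs begin with a stretch of C and T bases, the terminal oligopyrimidine tract, through which the mTOR pathway controls their translation. Neurons carry ribosomes in the cell body and in axons, where local protein synthesis has been studied in nociceptors. Many ribosomal protein genes also have processed pseudogenes, copies without introns elsewhere in the genome, to which short reads can map equally well.

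The start sequences below are shown because the initiator stretch is the feature these genes are best known to share. Of the 84 genes, 63 had an entry in the RefSeq table of start regions (GRCm38.p6, the build that mm10 also names). Each line covers 10 bases before and 20 bases from the annotated start, 5′ to 3′, with a run of at least 6 C or T bases near the start in capitals.
Rpl13a, chr7:45128726-45128755, minus strand: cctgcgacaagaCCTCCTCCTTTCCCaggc
Rps18, chr17:33955646-33955675, minus strand: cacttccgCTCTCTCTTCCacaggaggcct
Rps26, chr10:128626487-128626516, minus strand: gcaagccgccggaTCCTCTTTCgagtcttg
Rps9, chr7:3704031-3704060, plus strand: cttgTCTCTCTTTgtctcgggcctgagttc
Rps21, chr2:180257369-180257398, plus strand: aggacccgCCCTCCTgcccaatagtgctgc
Rplp2, chr7:141447641-141447670, plus strand: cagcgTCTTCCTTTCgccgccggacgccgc
Rpl41, chr10:128549149-128549178, minus strand: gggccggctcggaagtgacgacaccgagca
Rpl11, chr4:136053374-136053403, minus strand: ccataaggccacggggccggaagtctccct
Such a run overlapped the window from 5 bases before to 5 bases after the start in 30 of the 63 genes (47.6%), against 21.0% of all 27025 genes of the table. Rpl41 and Rpl11 are shown as genes without such a run near the RefSeq start. The deposited locus of Rpl11, on the minus strand, starts at chr4:136053371, outside the window shown. A gene counted as without the run may carry it at another start, which was not examined. Within the whole 300 bases around the start, on either strand, the letters CCGGAAG, the core bound by ETS factors, were found in 38.1% of the ribosomal protein genes and 9.12% of all genes, and TCGCGAGA in 14.3% against 1.08%. TATAAA was found in 9.52% against 14.2%. AAGATGGC, the core bound by YY1, was found in 7.94% against 2.88%. These features were looked at after the levels had been seen, and the matches describe the letters in the windows only.

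Levels of the 84 genes were spread over several orders of magnitude. Near-equal protein numbers apply to the standard parts of the ribosome only. The 84 genes also include paralogs and Rps4l, which is annotated without a coding sequence. FPKM is scaled by length, so levels of different genes are on 1 scale, within the limit that shared sequence sets (described after the levels). The highest mean over the 12 samples was that of Rpl41, a very short large-subunit protein, at 293 FPKM, followed by Rps9 at 257 and Rpl8 at 193 FPKM, and Rplp1 was at 182 FPKM. At the other end, Rpl26 and Rpl10l were listed at 0 in all 12 samples. Rpl39l had a mean of 0.0648 FPKM, Rps12 of 0.133 and Rpl9 of 0.162 FPKM. Rpl10l and Rpl39l are paralogs best known from testis, whereas Rpl26, Rps12 and Rpl9 encode standard parts of every ribosome. A listed 0 can be a failed estimate and does not show that a gene was silent. Besides these, Rpl12, Rpl31, Rpl36a and Rpl3l were listed at 0 in at least 1 sample.

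The listed level went down as more of a gene's sequence occurred elsewhere in the genome annotation. Each gene's coding sequence with 40 bases on either side was cut into all its 100-base stretches, the length of a read, and each was searched for in every other annotated gene. This comparison was chosen after the levels had been seen. In 15 genes under 10% of the stretches occurred in another gene, and their median was 61.3 FPKM, with 6 of them above 100 FPKM. The 3 of these 15 that lay under 5 FPKM were the paralogs Rpl10l, Rpl39l and Rpl3l. In 29 genes with 10 to 60% of shared stretches the median was 9.20 FPKM, and in 39 genes with at least 60% it was 4.81 FPKM, with none above 100. Spearman's rho between the shared percentage and the mean level was -0.49 over 83 genes, which share libraries and so are not independent (Rps4l has no annotated coding sequence and was left out). Rps12 shared a stretch with 18 other genes, Rps2 with 36 and Rpl21 with 40, the highest number of the set. The methods state that up to 2 alignments per read were kept, and how multiply aligned reads were counted is not given in the sources used here. The level of a gene with many copies is therefore uncertain, and what part the copies have in it was not tested.

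**Figure D1:**
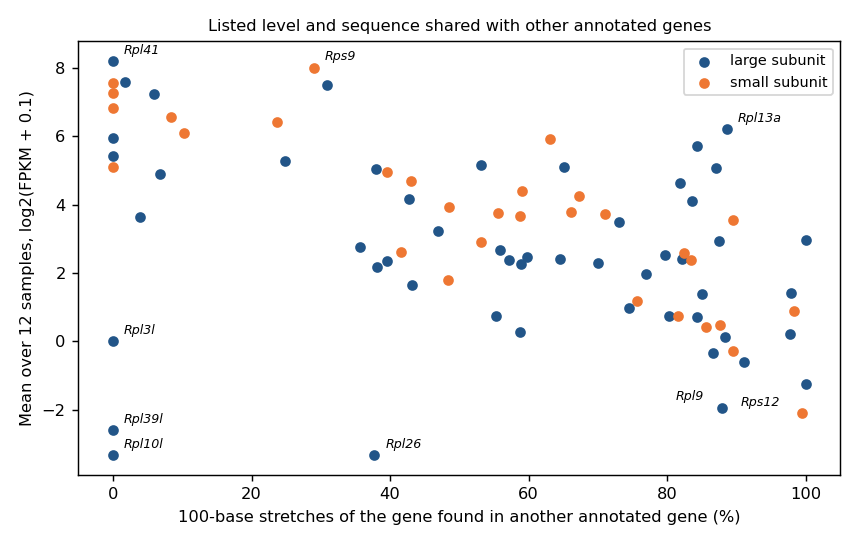
Mean level over 12 samples, on the log2(FPKM + 0.1) scale, against the percentage of 100-base stretches that occur in another annotated gene, 1 point per gene (83 genes), coloured by subunit. Genes with no shared stretch include both Rpl41, at the top, and the paralogs Rpl3l, Rpl39l and Rpl10l at the bottom, and no gene with at least 60% of shared stretches had a mean above 100 FPKM.

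One library stood apart before any comparison. Of 73 ribosomal protein genes that averaged 1 FPKM or more, 60 had their highest value of all 12 samples in intact sample 1. The gap to the other intact samples was a median of 0.98 on the log2 scale for 76 ribosomal protein genes, against 0.03 for all 12461 genes above the same floor. Genes with short transcripts were raised in this library in general, by a median of 0.26 up to 600 bases, while those over 4000 bases were at -0.33. The ribosomal protein genes of up to 600 bases were at 0.92, and those of 600 to 800 bases at 1.05 against 0.21 for all genes of that length. The muscle markers Acta1, Ckm, Mylpf, Tnnt3, Myh4, Myh1, Tnni2 and Tnnc2 summed to 3178 FPKM in intact sample 1, between 17.5 and 74.2 FPKM in the other intact samples and between 0.711 and 9.26 FPKM in the unsorted samples. Rpl3l, a paralog of Rpl3 used in muscle, was listed at 9.69 FPKM in intact sample 1 and between 0.178 and 0.250 FPKM in the other intact samples. What part these differences have in the ribosomal protein values was not tested. The counts in each comparison with intact ganglia are therefore given with and without this sample.

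**Figure D2:**
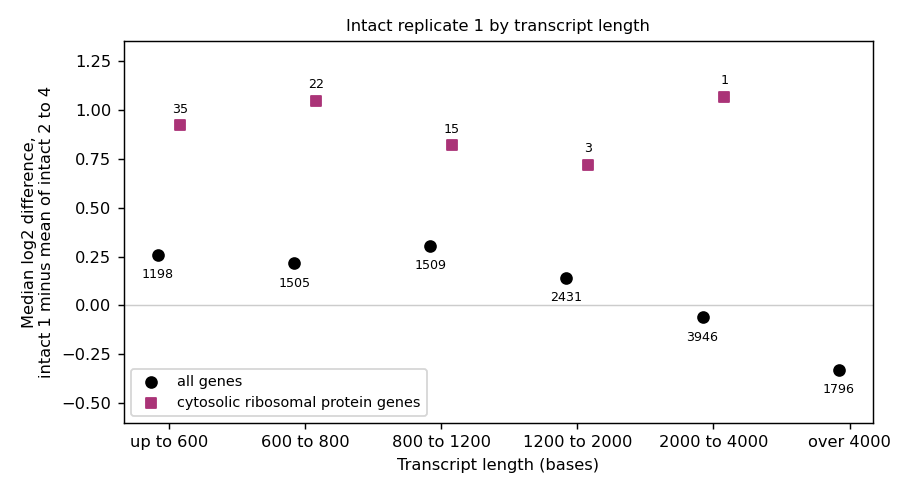
Median log2 difference between intact sample 1 and the mean of intact samples 2 to 4 by transcript length in bases, for all genes (circles) and the cytosolic ribosomal protein genes (squares), with the number of genes beside each point. In every length class that holds ribosomal protein genes they lie at 0.72 or more, while all genes lie between 0.14 and 0.31 up to 2000 bases and at -0.33 in the longest class. The class of 2000 to 4000 bases holds only 1 ribosomal protein gene.

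Taken as a sum, the 84 genes made up a smaller share of all FPKM in unsorted cells than in either other group. The share was 0.692%, 0.699%, 0.686% and 0.661% in the 4 unsorted samples, a mean of 0.685% ± 0.0167 (SD, n = 4). In the MACS-sorted samples it was 0.935%, 0.999%, 0.802% and 0.913%, a mean of 0.912% ± 0.0821 (SD, n = 4). In intact ganglia it was 1.49% in sample 1 and 0.884%, 0.943% and 1.00% in samples 2 to 4, whose mean was 0.943% ± 0.0601 (SD, n = 3). No unsorted sample reached the lowest sample of either other group, and the MACS-sorted samples overlapped intact samples 2 to 4. Genes of the mitochondrial ribosome, a separate set of 77 proteins named Mrpl and Mrps, made up 0.489% ± 0.00765 (SD, n = 4) of unsorted and 0.493% ± 0.0369 (SD, n = 4) of MACS-sorted FPKM, and these groups overlapped. In intact samples 2 to 4 they made up 0.541% ± 0.0182 (SD, n = 3), and every intact sample was above every unsorted sample for this set too. Since these are bulk samples, fewer cells of a type and less RNA per cell cannot be told apart.

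**Figure D3:**
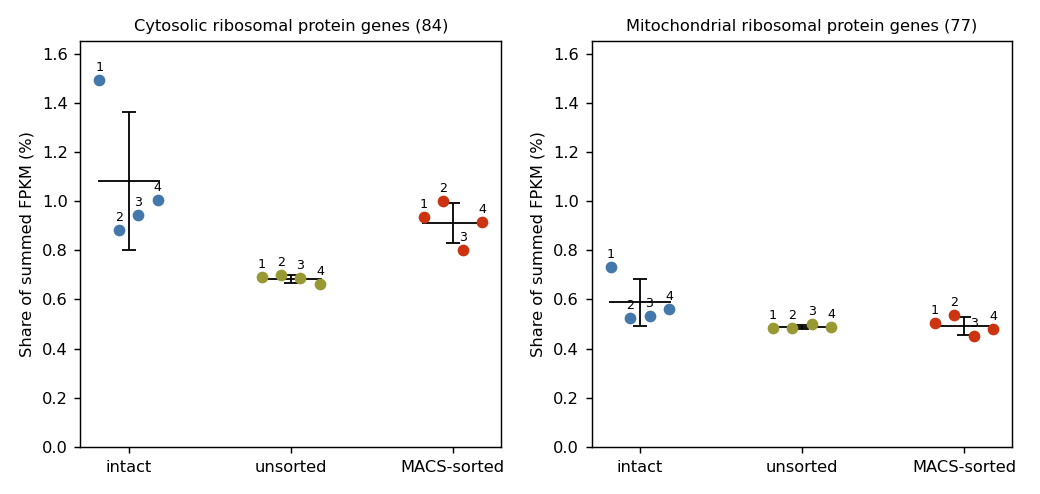
Share of the summed FPKM, in percent, held by the 84 cytosolic (left) and the 77 mitochondrial ribosomal protein genes (right) in each sample, with replicate numbers, and the mean and SD of each group in black (n = 4). For the cytosolic genes the 4 unsorted samples lie between 0.661% and 0.699%, below every intact and every MACS-sorted sample, and intact sample 1 stands alone at 1.49%.

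The order of the 3 groups was alike for most members. With intact sample 1 left out, the unsorted mean was the lowest of the 3 in 63 of 73 genes (86.3%), compared with 28.0% of all 12283 genes that averaged 1 FPKM or more. The highest mean was in MACS-sorted samples for 41 of the 73 and in intact samples for 31. The mean was lowest in intact ganglia for 2 genes. It was lowest in MACS-sorted samples for the others, 7 of them with intact highest and 1 with unsorted highest.

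**Figure D4:**
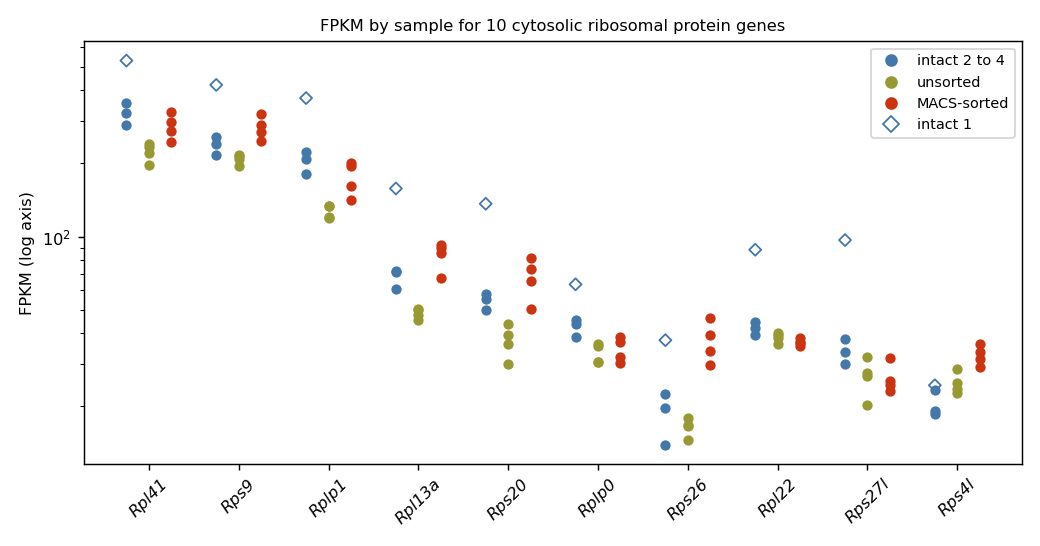
FPKM on a log axis in each of the 12 samples for 10 ribosomal protein genes, chosen after their values were seen to show the range of patterns: intact (blue, sample 1 as open diamonds), unsorted (olive) and MACS-sorted (red). Intact sample 1 is the highest point of every gene shown except Rps26 and Rps4l, and in 7 of the 10 genes (all but Rplp0, Rpl22 and Rps27l) every MACS-sorted sample is above every unsorted sample.

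MACS-sorted samples were first compared with unsorted samples, both of them dissociated and differing in the sorting step and in the number of mice pooled. Of the 84 genes, 71 averaged 1 FPKM or more in these 8 samples and were tested. Higher in sorted samples were 34 of the 71 and lower were 0 (limma, adjusted p under 0.05), against 18.8% and 27.7% of all 12038 genes tested. A fit over all 12 samples, which shares 1 estimate of the spread among the 3 groups, gave 16 higher and 0 lower. In that fit 2101 of all 12038 genes were higher and 3217 lower, against 2261 and 3331 in the fit to these 8 samples. The share of members called higher was thus closer to that of all genes. At an unadjusted p under 0.05 in the fit to the 8 samples there were 41 genes, again with none lower. The share of all genes at that limit was not counted, so this count has no background beside it. The median log2 fold change of the 71 was 0.35, against -0.04 for all genes, and 62 of them were above 0. Under the 3 criteria of the methods (adjusted p under 0.05, a log2 ratio of means beyond 0.5, and more than 5 FPKM on average where it is higher) 14 were higher and 0 lower, against 8.15% and 12.5% of all genes. In 28 genes every sorted sample was above every unsorted sample, against 18.4% of all genes, and in 0 genes every sorted sample was below, against 27.8%.

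Among small-subunit genes, 16 of 29 tested rose with sorting. Rps26, whose protein sits at the mRNA exit of the small subunit, had the largest log2 fold change among genes that passed, and its mean rose 2.26-fold. It was 16.6, 18.0, 14.6 and 16.8 FPKM in the unsorted and 39.4, 33.7, 29.6 and 46.1 FPKM in the sorted samples, with a log2 fold change of 1.15 ± 0.132 (SE) and an adjusted p of 8.59e-05. Every sorted sample was above the highest unsorted one. Rps20 was 39.3, 36.2, 43.7 and 30.0 FPKM in unsorted and 73.2, 81.7, 50.5 and 65.9 FPKM in sorted samples, a log2 fold change of 0.85 (adjusted p = 0.00159). Rps2, which sits at the entry of the mRNA channel and shares stretches with 36 other genes, was 12.4, 15.8, 13.9 and 12.1 FPKM and then 29.6, 26.9, 20.6 and 20.7 FPKM, a log2 fold change of 0.83 (adjusted p = 0.000807). Rps21 and Rps18 rose by 0.61 and 0.50 on the log2 scale.

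Of the large-subunit genes, 18 of 42 tested rose. Rpl13a, also known for a role outside the ribosome in silencing inflammatory mRNAs, went from 50.3, 49.8, 45.5 and 47.5 FPKM in unsorted to 89.6, 91.9, 67.6 and 85.5 FPKM in sorted samples (log2 fold change 0.78 ± 0.0986, SE; adjusted p = 0.000154). Rpl29, which shares stretches with 25 other genes, was 24.6, 23.9, 25.4 and 25.7 FPKM and then 43.9, 51.8, 37.8 and 38.8 FPKM, with the same log2 fold change of 0.78. Neither gene had overlapping groups. Rpl39, Rpl34, Rpl23a, Rpl30 and Rpl32 rose by 0.78, 0.75, 0.72, 0.72 and 0.59 on the log2 scale, and the sorted and unsorted samples overlapped only in Rpl34. Rpl37 passed with a log2 fold change of 1.10 at a mean of only 1.41 FPKM in sorted samples, and its groups overlapped.

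Among the most abundant members, Rpl41 was 220.5, 233, 241 and 198 FPKM in unsorted and 273, 326, 245 and 295 FPKM in sorted samples, a log2 fold change of 0.35 (adjusted p = 0.0187). Rps9 was 217, 214, 208 and 195 FPKM and then 288, 320, 268 and 248 FPKM (0.42; adjusted p = 0.00323). Rpl8 rose by 0.30 on the log2 scale. In none of these genes did the groups overlap. Of the 28 members that averaged 20 FPKM or more, 20 rose, and of the 43 tested members under 20 FPKM, 14 rose.

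Parts of one structure did not all pass together. The stalk of the large subunit, which recruits translation factors, is formed by the proteins of Rplp0, Rplp1 and Rplp2. Rplp1 was 120.5, 133, 133 and 119 FPKM in unsorted and 195, 200.0, 161 and 142 FPKM in sorted samples and rose by 0.45 (adjusted p = 0.00893). Rplp0 had a log2 fold change of 0.05 ± 0.100 (SE; adjusted p = 0.709), with 30.6, 35.6, 36.3 and 30.4 FPKM in unsorted and 31.9, 38.7, 30.3 and 37.0 FPKM in sorted samples. Rplp2 was at 0.62 ± 0.320 (SE; adjusted p = 0.140). Whether the stalk genes differ from each other was not tested. Rpl5 and Rpl11, whose proteins bind the 5S RNA and, when free, restrain Mdm2 and so stabilise p53, had log2 fold changes of 0.24 (adjusted p = 0.115) and 0.81 (adjusted p = 0.00282). Rpl11 was low throughout, at 1.88, 1.76, 1.51 and 1.61 FPKM in unsorted and 2.91, 3.44, 2.34 and 3.54 FPKM in sorted samples. Rpsa, a small-subunit protein also known as a laminin receptor, was at 0.37 (adjusted p = 0.0600).

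The 4 paralogs that could be tested did not pass in this comparison. Log2 fold changes were 0.33 for Rpl36al (adjusted p = 0.0648), 0.23 for Rpl22l1, 0.01 for Rpl7l1 and -0.02 for Rps27l, a p53-inducible relative of Rps27. Rps4l, annotated without a coding sequence and overlapping Tmtc1, at chr6:148354656-148355596 (mm10), rose by 0.38 (adjusted p = 0.00784). The 5 tested genes with the most negative values were Rps16 at -0.55 (adjusted p = 0.215), Rps29 at -0.38, Rpl27 at -0.30, Rps28 at -0.20 and Rpl38 at -0.18, none of which passed. The largest value of all, 2.04 ± 1.11 (SE) for Rpl31, did not pass either (adjusted p = 0.163). Rpl31 was listed at 0 in unsorted sample 3 and at 4.06, 5.82 and 3.63 FPKM in the others, and without that sample it was at 0.66 (adjusted p = 0.0613). Rpl28 was at 1.09 (adjusted p = 0.0778).

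The counts can be set beside the features described above, without a test of their difference. Of the 12 tested genes with under 10% of shared stretches 9 rose, with a median log2 fold change of 0.33 over the 12, and of the 30 with at least 60% 11 rose, with a median of 0.35. Of the 26 tested genes with a C and T run near the annotated start, 12 rose (median 0.42). Of the 25 without one there, 10 rose (median 0.33). In the length class of up to 600 bases, the 34 tested members had a median of 0.36 against -0.03 for all genes of that class.

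Cell type markers moved in the same comparison. Satellite glia markers (Fabp7, Kcnj10, Slc1a3, Glul, Gja1 and Sox10) summed to 399 to 543 FPKM in unsorted and 84.4 to 130 FPKM in sorted samples, with all 6 lower by the test. Schwann cell markers went from 1902 to 3131 FPKM down to 517 to 1195 FPKM with 5 of 6 lower, and fibroblast markers from 168 to 337 FPKM down to 7.62 to 32.4 FPKM with 5 of 6 lower. Macrophage markers went from a sum of 11.5 to 24.3 FPKM to 0.608 to 2.52 FPKM, with all 4 that were tested lower. Endothelial markers summed to 38.2 to 50.5 FPKM in unsorted and 11.4 to 68.1 FPKM in sorted samples. All 6 had log2 fold changes below 0, and 0 of them passed. Among 8 general neuronal markers 4 were higher and 2 lower, among 8 nociceptor markers 6 were higher and 1 lower, and all 6 markers of large neurons were lower. Red blood cell genes held 0.0366% to 0.130% of FPKM in unsorted samples and 0.557%, 0.796%, 4.11% and 5.18% in the sorted ones, and 2 of the 12 genes of that list were at 0 in all samples. What part the cell types have in the rise was not tested. With sorted samples 3 and 4, the richest in red blood cell transcripts, left out, 40 of 70 members tested were higher and 1 lower, with a median of 0.47. Of all 12066 genes tested in that setting, 2559 were higher and 3342 lower. This setting was added after the values had been seen, and only 2 sorted samples remain in it.

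**Figure D5:**
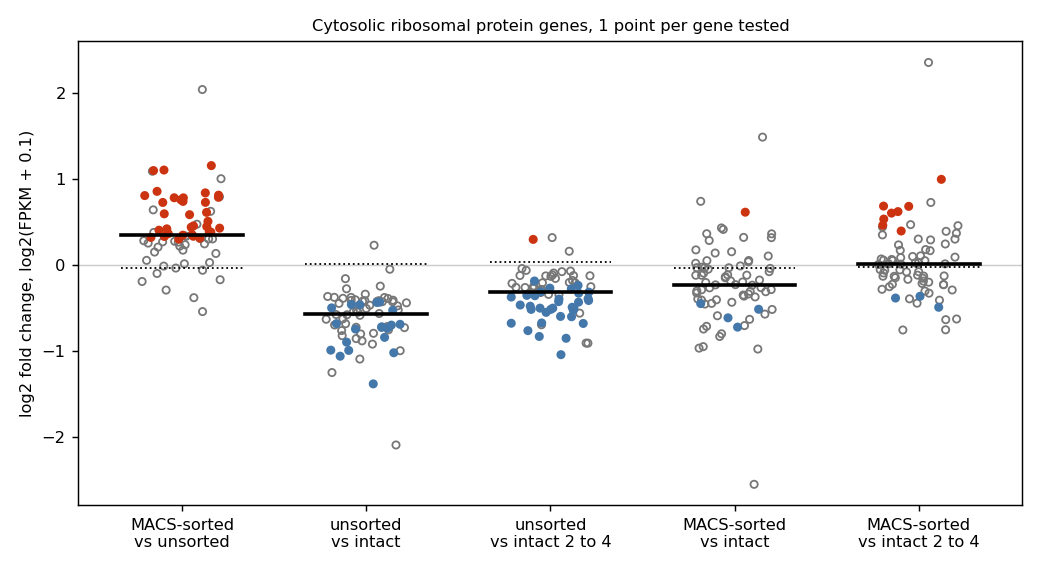
Log2 fold change on the log2(FPKM + 0.1) scale of every ribosomal protein gene tested in each comparison, with and without intact sample 1. Filled points passed the test (red higher, blue lower), open points did not, the thick line is their median and the dotted line the median of all genes tested. In MACS-sorted against unsorted samples the 34 genes that passed are all above 0, and in unsorted against intact samples 2 to 4 34 of the 35 that passed are below 0.

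Unsorted samples were then compared with intact ganglia, from which they differ in the dissociation and in the number of mice pooled. Of 73 genes tested 20 were lower and 0 higher in unsorted cells (limma, adjusted p under 0.05), against 7.79% and 14.8% of all 12392 genes. There were 38 genes at an unadjusted p under 0.05, a limit at which the share of all genes was not counted. The median log2 fold change was -0.57 against 0.01 for all genes, and 72 of 73 were below 0. Without intact sample 1, 34 of 71 were lower and 1 higher, against 13.6% and 22.2% of all genes, and the median was -0.32. The size of the difference thus shrank while more genes passed. By the 3 criteria 16 were lower and 0 higher with all samples, against 2.76% and 4.29% of all genes, and 15 were lower and 0 higher without intact sample 1, against 2.56% and 3.20%. In 32 genes every unsorted sample was below every intact sample with intact sample 1 in or out, against 12% and 17.3% of all genes. In 0 genes was every unsorted sample above every intact sample, against 20.8% and 26.3% of all genes. The count with all samples depended on each library: it was 8 with unsorted samples 1 and 2, the closest pair, averaged into 1 sample, and 8, 7, 9 and 7 without unsorted sample 1, 2, 3 or 4. It was 13 without intact sample 3 and 10 without intact sample 4. The count of all genes that were lower fell too, from 965 with all samples to 610 with the averaging. It was 583, 612, 569 and 498 without unsorted sample 1, 2, 3 or 4, and 696 and 550 without intact sample 3 or 4.

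Rpl30, a large-subunit protein, was 9.11, 10.2 and 11.8 FPKM in intact samples 2 to 4, 18.4 in sample 1 and 5.01, 4.84, 5.86 and 7.11 FPKM in unsorted samples. It fell by 1.06 with and by 0.86 without sample 1. Rps18, at the head of the small subunit, was 41.9, 22.2, 22.2 and 30.8 FPKM in intact and 13.2, 14.5, 14.5 and 13.2 FPKM in unsorted samples, and fell by 1.02 and 0.84. Rps25, a small-subunit protein used in some cap-independent initiation, was 29.5, 14.4, 14.9 and 17.6 FPKM and then 9.73, 10.8, 7.85 and 8.34 FPKM. It fell by 1.00 and 0.77. In these 3 genes every intact sample was above every unsorted sample, also without intact sample 1.

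Here the stalk genes all passed. Rplp1 was 371, 182, 208 and 222 FPKM in intact ganglia and fell by 0.90 (adjusted p = 0.0141), or by 0.68 without sample 1. Rplp0 was 63.6, 38.6, 45.4 and 43.7 FPKM and fell by 0.50 (adjusted p = 0.0391) and 0.36. Rplp2 was 5.74, 5.20, 4.58 and 4.88 FPKM and fell by 0.74 (adjusted p = 0.0370) and 0.68, with overlapping groups. Rpsa fell by 0.69 and 0.51, and Rpl41 by 0.70 and 0.52. Rpl5 was at -0.55 with all samples (adjusted p = 0.0559) and fell by 0.38 without sample 1 (adjusted p = 0.0326), whereas Rpl11 was at -0.53 and -0.13 and passed in neither.

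Some genes did not pass or went the other way. Rpl3l had the most negative value, -2.10 (adjusted p = 0.199), and it was tested only because of its level in intact sample 1. Without that sample its mean was under the floor. Rps7 was at -1.25 (adjusted p = 0.0777) and Rpl35 at -1.10 (adjusted p = 0.139), both at low levels. Among paralogs, Rpl36al was at -0.53 (adjusted p = 0.107) and fell by 0.28 without intact sample 1 (adjusted p = 0.00505), and Rps27l, Rpl22l1 and Rpl7l1 passed in neither. Rps29 at -0.05, Rpl7l1 at -0.16, Rpl15 at -0.25 and Rpl8 at -0.28 were the nearest to 0 on the negative side. Rps4l was the only gene above 0 with all samples, at 0.23 (adjusted p = 0.180), and it was 0.29 and passed without intact sample 1 (adjusted p = 0.0483). It was 24.4, 18.6, 19.1 and 23.4 FPKM in intact and 24.9, 22.7, 28.6 and 23.6 FPKM in unsorted samples, and the groups overlapped.

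In the same comparison, fibroblast markers summed to 496 to 942 FPKM in intact and 168 to 337 FPKM in unsorted samples and all 6 were lower. Macrophage markers summed to 37.3 to 82.0 FPKM and 11.5 to 24.3 FPKM, with 6 of 7 lower. Endothelial markers were higher, 6 of 6, and satellite glia markers overlapped in sum, with 3 of 6 higher. General neuronal markers summed to 3621 to 3985 FPKM in intact and 4352 to 4716 FPKM in unsorted samples, with 4 of 8 higher, and large neuron markers to 569 to 764 FPKM and 811 to 997 FPKM, with 4 of 6 higher. Without intact sample 1, 6 of 6 fibroblast and 5 of 6 tested macrophage markers were lower, and 6 of 6 endothelial, 4 of 6 satellite glia, 6 of 8 neuronal and 5 of 6 large neuron markers were higher. Muscle markers were lower in 7 of 8, and in 7 of 7 tested without that sample. All 6 Schwann cell markers were below 0 in both settings, and 0 passed. Nociceptor markers had 2 of 8 higher and 0 lower, or 2 higher and 1 lower without that sample. Of 5 red blood cell genes tested, 0 passed in either setting. What part these have in the lower ribosomal protein transcripts was not tested.

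MACS-sorted samples were compared with intact ganglia last. This comparison shares its samples with the previous ones and is not independent of them. Of 75 genes tested 1 was higher and 4 lower in sorted samples, against 14.1% and 20.6% of all 12234 genes, so that a smaller share of them passed than of all genes. The median was -0.23 against -0.04. Without intact sample 1, 8 of 74 were higher and 3 lower, against 17.0% and 21.6%, and the median was 0.01. By the 3 criteria 1 was higher and 2 lower, against 7.54% and 10.7%, and without intact sample 1 these were 3 and 1, against 7.72% and 10.1%. The sorted samples were all above the intact samples in 1 gene and all below in 5, against 15.6% and 21.9% of all genes, or in 8 and 4 without intact sample 1, against 20.8% and 26.6%. The 4 lower genes were Rpl27, Rps25, Rpl3 and Rplp0, and which genes pass as lower depended on the libraries: 0 did without sorted sample 1, without sorted sample 3 or without intact sample 4, 1 did without intact sample 3, and 2 did without sorted sample 2 or 4. Over all genes, 2032 to 2623 were lower in these settings, against 2524 with all samples.

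The gene higher with all samples was Rps4l, at 33.4, 36.3, 31.3 and 29.2 FPKM in sorted samples, all above the highest intact sample. Its log2 fold change was 0.61 ± 0.119 (SE; adjusted p = 0.00331), and 0.68 without intact sample 1. Rps26 was 37.5, 19.8, 13.9 and 22.5 FPKM in intact ganglia, so that sample 1 lay within the sorted range and the others below it. It was at 0.74 with all samples (adjusted p = 0.0589) and rose by 0.99 without intact sample 1 (adjusted p = 0.00429). Rps2 was at 0.43 and rose by 0.62 without that sample. Rpl11 rose by 0.68, Rpl10 by 0.60, Rpl7a by 0.53 and Rpl29 by 0.46 in the same setting.

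Rps25 was 13.4, 11.9, 10.2 and 12.2 FPKM in sorted samples, below every intact sample, and fell by 0.62 (adjusted p = 0.0484) or 0.39 without intact sample 1 (adjusted p = 0.0260). Rpl3, a large-subunit protein, fell by 0.52 (adjusted p = 0.0410) and was at -0.40 without intact sample 1 (adjusted p = 0.0713). Rplp0 fell by 0.45 (adjusted p = 0.0489), and was at -0.31 without that sample (adjusted p = 0.0504). Rpl27, at 1.19 FPKM in sorted samples, fell by 0.73 (adjusted p = 0.0469), and was at -0.63 without intact sample 1 (adjusted p = 0.0920). Rps14 was at -0.84 (adjusted p = 0.0572) and fell by 0.50 without intact sample 1 (adjusted p = 0.0247), as did Rps27l by 0.37 (adjusted p = 0.0461). Rps16 at -0.97, Rps7 at -0.98, Rps28 at -0.95 and Rpl3l at -2.55 did not pass, nor did Rpl31 at 1.48 or Rpl35a at 0.41.

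Other genes of the translation machinery were read from lists of known functions. Of 20 translation factors and other mRNAs known to carry a start tract, 10 were higher and 1 lower in sorted than in unsorted cells, against 18.8% and 27.7% of all genes, with a median log2 fold change of 0.22. Hnrnpa1, Tpt1 and Pabpc1 rose most, by 0.84, 0.77 and 0.75. Hnrnpa1 is an RNA-binding protein, Tpt1 a small growth-related protein and Pabpc1 the polyA-binding protein. Eef1a1, the elongation factor that brings tRNAs to the ribosome, rose by 0.39, from 358, 346, 330.0 and 339.7 FPKM to 469, 485, 424 and 420.4 FPKM. The lower gene was Vim, an intermediate filament gene of glia and fibroblasts, which fell by 2.76. Fau, which encodes a ribosomal protein fused to a ubiquitin-like protein, was at -0.83 (adjusted p = 0.143) and Eef1d at -0.18.

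In the remaining lists the shares called can be set beside the 18.8% higher and 27.7% lower of all genes, whose median was -0.04. Of 29 tested initiation factors and related genes 4 were higher and 1 lower, with a median of 0.08. Eif1a rose by 0.49, Eif5b by 0.40 and Eif2s2 by 0.28, and Eif4g3 fell by 0.33. Eif3i and Eif4ebp1, at -0.22 and -0.20, did not pass. Eef1a2, the form of the elongation factor that mature neurons use, was at -0.03 with 489 and 496 FPKM as group means. Of 39 tested ribosome assembly factors 5 were higher and 3 lower, with a median of 0.08. Taf1c rose by 0.59 and Ltv1 by 0.57, while Fbl at 0.40 did not pass (adjusted p = 0.190). Polr1a, the largest subunit of the polymerase that makes ribosomal RNA, fell by 0.46, Tsr1 by 0.29 and Nop56 by 0.27. Of 75 tested mitochondrial ribosomal protein genes 5 were higher and 7 lower, with a median of -0.06.

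Between unsorted and intact samples the same lists gave 0 higher and 3 lower of 20 for the factors with a start tract (median -0.20), 4 and 2 of 29 for initiation factors (-0.02) and 4 and 4 of 39 for assembly factors (-0.08), against 14.8% and 7.79% of all genes. Without intact sample 1 these were 3 and 7 (-0.08), 6 and 5 (0.02) and 4 and 9 (-0.08), against 22.2% and 13.6%. Mitochondrial ribosomal protein genes gave 2 higher and 1 lower of 75, with a median of -0.17, and 4 higher and 9 lower, with a median of -0.03, without intact sample 1.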

How the data were processed

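RNA of 12 samples, 4 in each of 3 groups, was analysed. Per the labels and methods, the authors aligned 100-base reads to mm10 with TopHat2, merged lanes with SAMtools and estimated FPKM with Cufflinks 2.1.1, and FPKM is the only unit the deposited table holds. FPKM is relative to all fragments of a sample, so a change in a few abundant genes moves every other value, and no counts or depths are given. Genes averaging 1 FPKM or more in the samples compared were tested on log2(FPKM + 0.1), which understates changes of low genes, with limma 3.58.1 (R 4.3.3, intensity trend, two-sided), and p-values were adjusted by Benjamini-Hochberg over all genes tested. The study used CuffDiff, which needs reads. Tables and figures were made with Python. The script was tested on simulated data, and the limit set for recovered changes was lowered after the result was seen. Transcript lengths and copies came from GENCODE M21 (GRCm38).

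The members and lists were chosen with earlier results of these data known. Genes are named if they are the 5 highest or lowest in level, the 5 with the largest change in either direction in a comparison, called by the 3 criteria where these are at most 15, listed at 0, paralogs, stalk or 5S-binding genes or Rpsa. Others, such as Rpl10 or Rpl7a, were named after their values were seen. Replicate numbers are not stated to pair samples and were not used as pairs. Settings tried were other pseudocounts, filters, scalings, a length correction, a replicate block and leaving out each sample. Some genes that the rule would name are not reported here, although counts over the members include them.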

Additional observations from a re-analysis of the deposited data

Results flagged for a closer look

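In each group of 4, a value was singled out where its gap to the nearest other sample was more than 0.829 of the group's range (Dixon's 95% limit). Of 140 groups tested, for the share of the members and 48 named genes, 20 were singled out, 12 of them by intact sample 1. The limit is set for about 1 in 20 groups by chance. These groups share libraries and many genes were named for their values, so that rate is no background for the count.

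Intact sample 1 was above the other intact samples for Rpl13a at 158 FPKM (others at most 72.3), Rps20 at 136, Rpl32 at 121, Rpl36al at 101, Rps27l at 96.7, Rpl39 at 85.7, Rpl22l1 at 49.6, Rpl29 at 46.4, Rpl7l1 at 15.8, Rpl3l at 9.69, Rpl11 at 5.80 and Rps7 at 3.81 FPKM.

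Unsorted sample 3 was high for Rpl3, at 17.2 FPKM against at most 12.6, and unsorted sample 1 for Rpl38, at 5.68 FPKM against at most 3.92. MACS-sorted sample 3 was low for Rpl36al, at 37.9 FPKM against at least 55.6. Rpl12 at 0.243 and Rpl39l at 0.176 FPKM in unsorted sample 2, Rps12 at 0.201 in unsorted sample 4 and at 0.901 in MACS-sorted sample 1, and Rpl3l at 0.159 FPKM in MACS-sorted sample 4 were the only values above 0 in their group. A lone value above 0 passes the limit whatever its size.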

How the results depend on the processing

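MACS-sorted against unsorted: the 34 members that were higher became 16 in a fit over all 12 samples and 28 to 36 with 1 sample left out. Over all genes, the 2261 that were higher became 2101 in the fit over all 12 samples. Lower were 0 to 1 with 1 sample left out and 1 without the MACS-sorted samples richest in red blood cell transcripts, a setting added after the data were seen. By the 3 criteria, 14 became 22 with quantile normalization, 23 without those samples, 2 with a log2 ratio limit of 1 and 11 to 18 with 1 sample left out. Calls by these criteria over all genes were not counted in these settings. By the test alone, quantile normalization gave 50 of 73 members higher. It gave 4039 higher and 2767 lower of all 12249 genes, against 2261 and 3331 of 12038 without it. The median of 0.35 became 0.49 with quantile normalization, which also moved the median of all genes to 0.10 (0.13 in MACS-sorted against intact), 0.47 without those samples, and 0.30 to 0.43 with 1 left out.

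Unsorted against intact: the 20 lower members became 8 with unsorted samples 1 and 2 averaged and 7 to 34 with 1 sample left out, with 0 to 1 higher. Over all genes, the 965 that were lower became 610 with that averaging. By the 3 criteria, 16 became 7 with that averaging, 5 with a limit of 1 and 6 to 20. The median ran from -0.67 to -0.32.

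MACS-sorted against intact: the 1 higher member became 2 in the fit over all samples, with the replicate block, with either set of size factors and without red blood cell genes, 4 with quantile normalization or the length trend removed, and 1 to 8 with 1 left out. The 4 lower became 7 in the fit over all samples, 2 with a 5 FPKM floor, with either set of size factors or without the red-cell-rich samples, 1 with no filter, no trend, the replicate block or red blood cell genes removed, and 0 to 4. By the 3 criteria, the 1 higher became 2 in the fit over all samples, with the block, size factors, red blood cell genes removed or the length trend removed, 3 with quantile normalization, 0 with a limit of 1, and 1 to 3. The 2 lower became 3 in the fit over all samples and with the length trend removed, 1 with pseudocount 0.01, no filter, the block, size factors or red blood cell genes removed, 4 with quantile normalization, 0 with no trend, with a limit of 1 or without the red-cell-rich samples, and 0 to 4. The median ran from -0.35 to 0.01. By the test alone, quantile normalization gave 3102 higher and 2044 lower of all 12303 genes, against 1728 and 2524 of 12234 without it. These were 2132 and 2594 with the length trend removed, and 2264 and 2992 in the fit over all samples.

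With 1 sample left out, the mean share was 0.943% to 1.15% for intact, 0.680% to 0.693% for unsorted and 0.883% to 0.949% for MACS-sorted ganglia. The cause of these changes was not tested.

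No named member that passed changed sign, and these members, which did not pass, did so in at least 1 setting. In MACS-sorted against unsorted, quantile normalization gave 0.229 for Rpl27, 0.130 for Rpl38, 0.0514 for Rps16, 0.0433 for Rps27l and 0.318 for Rps28. Rpl38 was 0.0261 with pseudocount 1. Rps27l was 0.0401 with size factors (0.0422 from genes other than the members), 0.0214 without red blood cell genes and 0.0181 with the length trend removed. With 1 sample left out, Rpl38 ran from -0.66 to 0.75 (the latter without MACS-sorted sample 1, adjusted p = 0.0332), Rpl7l1 from -0.0684 to 0.120, Rplp0 from -0.00822 to 0.110, Rps27l from -0.14 to 0.0788 and Rps28 from -0.56 to 0.22. In MACS-sorted against intact, Rpl22l1 ran from -0.58 to 0.0255, Rpl31 from -0.0750 to 2.35, Rpl36al from -0.32 to 0.0521 and Rplp2 from -0.35 to 0.145. Rplp2 was 0.134 with quantile normalization, and Rpl7l1 was 0.0497 without the red-cell-rich samples.

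Deviations from the group means correlated weakly between samples with the same replicate number (r from -0.143 to 0.067). Samples with different numbers gave r from -0.256 to 0.170. With 4 samples in a group, these values cannot tell whether samples of the same number were prepared together, and the labels do not state it. A replicate block gave 35 higher in MACS-sorted against unsorted and 22 lower in unsorted against intact. FPKM alone gives no depth, so low members cannot be given counting errors.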
